A study of Mus musculus with 15 samples.

Results

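Cytosolic ribosomal protein genes encode the proteins of the large (60S) and small (40S) subunits of the ribosome that translates nuclear-encoded messages. They were taken from the count table by name, as Rpl or Rps followed by digits with or without a short suffix, together with Rpsa, Rplp0, Rplp1, Rplp2 and Fau. Pseudogenes and the Rps6k kinases were left out, and a mean of at least 1 CPM (counts scaled to a common library total) over the 15 libraries was required. Of 86 such names among the 24419 genes of the table, 80 reached that mean, 47 of the 60S and 33 of the 40S subunit, and all 80 passed the filter on low counts used for the tests. At the limit, Rpl34 lay just inside with a mean of 1.002 CPM and Rps27 just outside with 0.998 CPM. The other names left out were Rpl3l at 0.308 CPM, Rpl30 at 0.176 CPM, Rpl39l at 0.0414 CPM, and Rpl26 and Rpl10l at 0.

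The ribosome is assembled from one copy of most of these proteins together with ribosomal RNA, so cells make the proteins in matched amounts. Most of the messages start with a C followed by a run of pyrimidines, the 5′ terminal oligopyrimidine (TOP) motif, through which the mTOR pathway and the LARP1 protein adjust their translation to nutrients and growth signals. In brain tissue ribosomal protein messages are abundant in neurons and glia alike, and many ribosomal protein genes have processed pseudogenes elsewhere in the genome.

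RNA was sequenced from punches of the suprachiasmatic nuclei (SCN), the hypothalamic pacemaker of the circadian clock, of C57BL/6 mice aged 8 to 12 weeks. Mice carried a loss of REV-ERB alpha and beta, a pair of nuclear receptors that repress transcription within the clock (double knockout, DKO), or were controls. Neither the driver of the deletion nor the deleted exons are stated in the labels. Tissue was collected at circadian time (CT) 4 h, in the subjective day, from 3 control and 3 DKO pools, or at CT 16 h, in the subjective night, from 5 control and 4 DKO pools, each library holding 2 to 4 punches.

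Total counts ran from 32580803 to 68757624 per library. Counts over the whole of Nr1d1 and Nr1d2, which encode the receptors, were not lower in the libraries labelled DKO (Nr1d1 at CT4 198 to 282 CPM in control and 226 to 252 CPM in DKO). Nr1d2 was higher in DKO without overlap at CT4 (116 to 130 CPM in control and 163 to 181 CPM in DKO). At CT16 both were higher in DKO without overlap (Nr1d1 135 to 150 against 241 to 378 CPM, Nr1d2 96.7 to 118 against 198 to 259 CPM). A loss was not seen in these whole-gene counts, so they do not check the genotype labels, and every direction below rests on those labels. The SCN markers Vip, Avp, Six6 and Lhx1 were detected in every library. Control CT4 replicate 1 and DKO CT16 replicates 3 and 4 stood apart from their groups in tissue markers (mean log2 deviations of 0.65 and 1.004 for neighbouring nuclei and 1.608 for myelin), and counts without these 3 libraries are given beside the results below. Control CT16 replicate 5, which those counts keep, was also the highest of its group in neighbouring nuclei (0.79, the others -0.634 to 0.161). Its ependymal markers were at 0.782, the others at -0.714 to -0.046. In bulk tissue, fewer cells of a type and less RNA per cell cannot be told apart.

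The sequences at the starts of these genes are shown first because the pyrimidine run is the feature for which ribosomal protein messages are best known. They come from RefSeq promoter windows on GRCm38.p6, each from 250 bases before to 50 bases after an annotated start, which were found for 60 of the 80 genes. Each line is 30 bases, written 5′ to 3′ on the gene's strand, and the capitals mark a run of C and T that begins with C. The first 5 genes were called higher in DKO at CT4, and Fau, Rplp2 and Rps6 are shown for comparison as genes whose annotated start lies inside the run, as it also does in Rpl27a and Rpl35.
Rps24, chr14:24490711-24490740, plus strand: agcggtCCTCTTTTCCTCCTCTCCagctcc
Rpl27a, chr7:109519185-109519214, plus strand: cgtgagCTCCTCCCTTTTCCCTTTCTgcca
Rpl35, chr2:39005115-39005144, minus strand: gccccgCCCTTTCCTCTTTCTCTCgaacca
Rpl36a, chrX:134585674-134585703, plus strand: gctctagCCTCTCTCTTTCCgagctgctag
Rpl4, chr9:64173407-64173436, plus strand: gcgtggCCTTCTCCTCTCCCCgtcatggtg
Fau, chr19:6057938-6057967, plus strand: cccccaCTTCTTCCTCTTTCTTgactccat
Rplp2, chr7:141447641-141447670, plus strand: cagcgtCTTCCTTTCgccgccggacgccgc
Rps6, chr4:86857345-86857374, minus strand: gtcgggCCTCTTTTTCgtgacgcctcccag

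A C-led pyrimidine run of at least 8 bases was present within 50 bases of an annotated start in 50 of the 60 genes (83.3%), against 32% of the 27025 genes with a window. At the annotated base itself, a C followed by at least 4 further C or T was found in 13 of the 60 (21.7%), against 3.01% of all genes. The first base of the run often lay near rather than at the annotated one: it was 4 bases before the annotated start of Rpl27a and 27 bases after that of Rpl36a. The longest such run had a median of 10 bases in the ribosomal protein genes and 6 bases in all genes. Both strands of the same windows were searched for short motifs. CTTCCG, a core bound by ETS factors, occurred in 40 of the 60 genes (66.7% against 18.8% of all genes), and ATGGCGG, a YY1-type core, in 11 (18.3% against 4.69%). AGGTCA, the core bound by REV-ERB and ROR receptors, occurred in 5 (8.33% against 18.1%), and with a T before it, TAGGTCA, in 0 (against 2.97%). Every match of the longer motif is also a match of the shorter one. CACGTG, the E-box, occurred in 6 (10% against 8.09%), and TTATGTAA, a D-box, in 0 (against 1.11%). A match or its absence describes these letters in this window only.

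Levels between genes were compared per kilobase of exonic length (RPKM). The median over 15 libraries had a median of 214 RPKM across the 80 genes, and 70 of the 80 were above 100 RPKM. The highest was Rplp1, an acidic protein of the 60S stalk that recruits elongation factors, at 715 RPKM, followed by Rps15 of the 40S head at 470 RPKM and Rpl3 of the peptidyl transferase region at 441 RPKM. The lowest were Rpl34 at 1.26 RPKM, Rpl7l1 at 16.5 RPKM, Rps27l at 19.5 RPKM, Rpl22 at 25.2 RPKM and Rps4l at 33.3 RPKM.

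Rpl34, Rps27, Rpl30 and Rpl26 are core ribosomal proteins, and their near-empty rows coincided with a feature of the annotation. In the exon coordinates deposited with the counts, 59.9% of the exonic bases of Rpl34 also belong to Rpl34-ps1 on the same strand. The same holds for 60% of those of Rps27 with Rps27rt, 76% of those of Rpl30 with Gm12191 and 95.8% of those of Rpl26 with Gm15772. Each of those 4 second genes had a mean of 0 CPM. These were the 4 names of the 86 with such a same-strand overlap above 50%. Overlap with a gene on the opposite strand did not come with such levels: Rpl5 shares 47.7% of its exonic bases with Fam69a and had a mean of 151 CPM, and Rpl31 shares 33.1% with Tbc1d8 and had 172 CPM. The level of Rpl34 in the table is thus not comparable with that of the other 79 genes, and whether the overlap caused the loss of counts was not tested. The strand setting of the counting is not given in the labels, so reads of genes on opposite strands could not be separated.

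Sequence shared with other genes, mostly processed pseudogenes, was measured in GENCODE M21 transcripts. It is the percentage of a gene's 50-base windows that also occur in a transcript of another gene. Of the 79 genes matched, 78 had at least 1 such window, the median share was 35.8%, and 27 were above 50%. The highest share was 95.1%, for Rpl35. The rank correlation across these 79 genes between share and RPKM was 0.21, a description over genes that were counted in the same libraries.

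**Figure D1:**
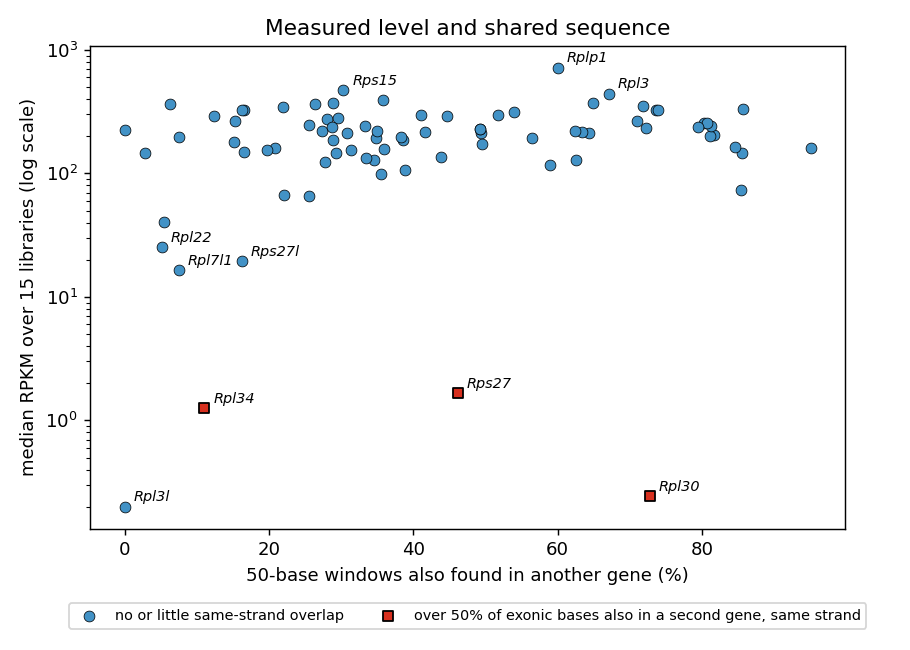
Median RPKM over 15 libraries (log scale) against the percentage of 50-base windows also found in another gene, for each name with a median above 0. Rpl34, Rps27 and Rpl30 (squares, over 50% of exonic bases also in a second gene on the same strand) lie below 2 RPKM, while genes with a high share of windows, such as Rpl35 at 95.1%, lie with the bulk.

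Paralog pairs held unequal levels. Rpl22, an RNA-binding 60S protein, was at a median of 25.2 RPKM and its paralog Rpl22l1 at 117 RPKM. That order rests on the deposited exonic lengths, 2497 and 477 bases: by mean CPM Rpl22 was the higher (65.2 against 54.3 CPM). Rps4x was at 233 RPKM against 33.3 RPKM for Rps4l, and Rpl36a at 146 RPKM against 66.4 RPKM for Rpl36al. Rpl7 was at 227 RPKM against 16.5 RPKM for Rpl7l1, with exonic lengths of 933 and 2606 bases. Rpl39l and Rpl10l were at a median of 0 RPKM, against 148 RPKM for Rpl39 and 327 RPKM for Rpl10, and Rpl3l was at 0.2 RPKM against 441 RPKM for Rpl3, so the paralogs known from testis and striated muscle were close to 0 in these punches. The spread within groups was small: the SD of log2 CPM had a median of 0.069 over the ribosomal protein genes and 0.142 over all 16910 tested genes, though ribosomal protein genes also have higher counts. It was lowest for Rpl4 at 0.033 and highest for Rpl34 at 0.481, Rpl22l1 at 0.186 and Rps4l at 0.152.

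The summed counts of the 80 genes made up 1.295% to 1.43% of each library. At CT4 the share was 1.31%, 1.30% and 1.33% in the control libraries and 1.39%, 1.40% and 1.43% in the DKO libraries, with means of 1.31% ± 0.0123 (SD, n = 3) and 1.41% ± 0.0222 (SD, n = 3). The groups did not overlap at this time, and the DKO libraries were the higher ones. At CT16 the share was 1.36% ± 0.0362 (SD, n = 5) in control and 1.36% ± 0.0523 (SD, n = 4) in DKO, and both groups covered almost the same range, from 1.326% to 1.415% and from 1.295% to 1.42%. The control group at CT4 was thus the low and narrow one. By group means of single genes, control CT4 was the lowest of the 4 groups for 51 of the 80 genes, against 22.4% of all tested genes, and DKO CT4 the highest for 38, against 25.9%.

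**Figure D2:**
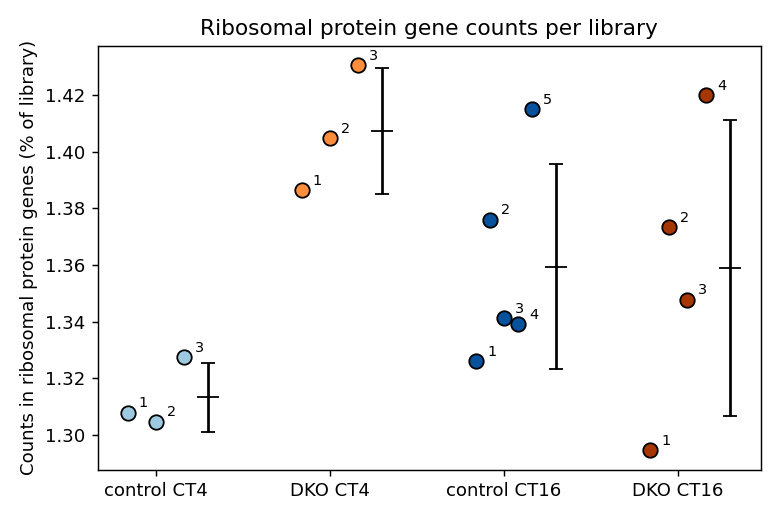
Counts in the 80 ribosomal protein genes as a percentage of each library's total, by group, with replicate numbers, and the mean and SD beside each group. The vertical axis does not start at 0. The 3 control CT4 libraries lie between 1.30% and 1.33%, below the 3 DKO CT4 libraries, while the CT16 groups overlap.

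The first comparison asked how the ribosomal protein genes differed with the loss of REV-ERBs in the subjective day. At CT4 the genes shifted upward together by a small amount: 63 of 80 had a positive log2 fold change, with a median of 0.09, against 49.5% positive and a median of 0.00 over all tested genes. By edgeR's quasi-likelihood test with Benjamini-Hochberg adjustment over all genes and an adjusted p under 0.05 as the threshold for a call, 6 were called higher in DKO (0.574% of all genes were called higher) and 0 lower (0.71% of all genes). Without overlap between the groups, 37 were higher (12.1% of all genes) and 2 lower (13.3% of all genes). At an unadjusted p under 0.05, 30 were higher (6.25% of all genes) and 2 lower (8.54% of all genes).

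**Figure D3:**
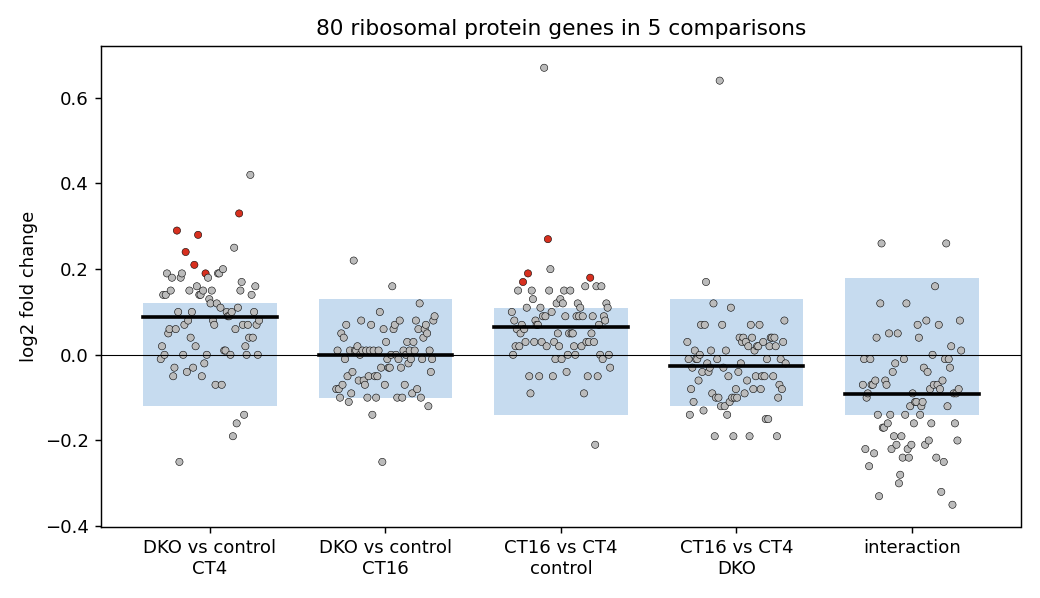
Log2 fold changes of the 80 ribosomal protein genes in each comparison (points, in alphabetical order from left to right, red where called), their median (black bar) and the interquartile range of all tested genes (blue band). The interaction is the genotype difference at CT16 minus that at CT4. The median is above 0 for DKO against control at CT4 and for time in control, and below 0 for the interaction.

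Rps24, a 40S protein needed to mature the small subunit and mutated in Diamond-Blackfan anaemia, was at 203, 204 and 211 CPM in control and 264, 246 and 267 CPM in DKO. The lowest DKO library thus lay above the highest control library, and the log2 fold change was 0.33 ± 0.05 (SE; edgeR adjusted p = 0.00666). Rpl21, a 60S protein, was at 256, 262 and 254 CPM in control and 325, 309 and 310 CPM in DKO. Its groups were likewise separate, with a log2 fold change of 0.29 ± 0.05 (edgeR adjusted p = 0.00731). Rpl21 has 82 other genes that share at least one window with it, 81 of them pseudogenes, although only 19.7% of its windows are shared.

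The other 4 called genes were all of the large subunit. Rpl36a, next to the exit site for tRNA, was at 63.5, 63.3 and 62.4 CPM in control and 79.6, 73.3 and 77.3 CPM in DKO, a log2 fold change of 0.28 ± 0.06 (edgeR adjusted p = 0.0389). Rpl4, whose extension lines the tunnel for the nascent peptide, was at 430, 444 and 436 CPM against 508, 481 and 509 CPM in DKO, a log2 fold change of 0.19 ± 0.04 (edgeR adjusted p = 0.042). Both genes were higher in every DKO library than in any control library. Rpl35, at the mouth of that tunnel, was at 67.4, 69.2 and 70.7 CPM in control and 79.4, 78.9 and 82.1 CPM in DKO, a log2 fold change of 0.21 ± 0.05 (edgeR adjusted p = 0.0421). Rpl27a, a 60S protein of the subunit's core, was at 172, 162 and 170 CPM in control and 199, 193 and 203 CPM in DKO, a log2 fold change of 0.24 ± 0.06 (edgeR adjusted p = 0.048). Again neither gene's groups overlapped. Rpl36a and Rpl35 share 85.5% and 95.1% of their windows with other genes, so part of their reads could belong to copies, and 0.885% of the exonic bases of Rpl35 overlap Wdr38 on the opposite strand.

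**Figure D4:**
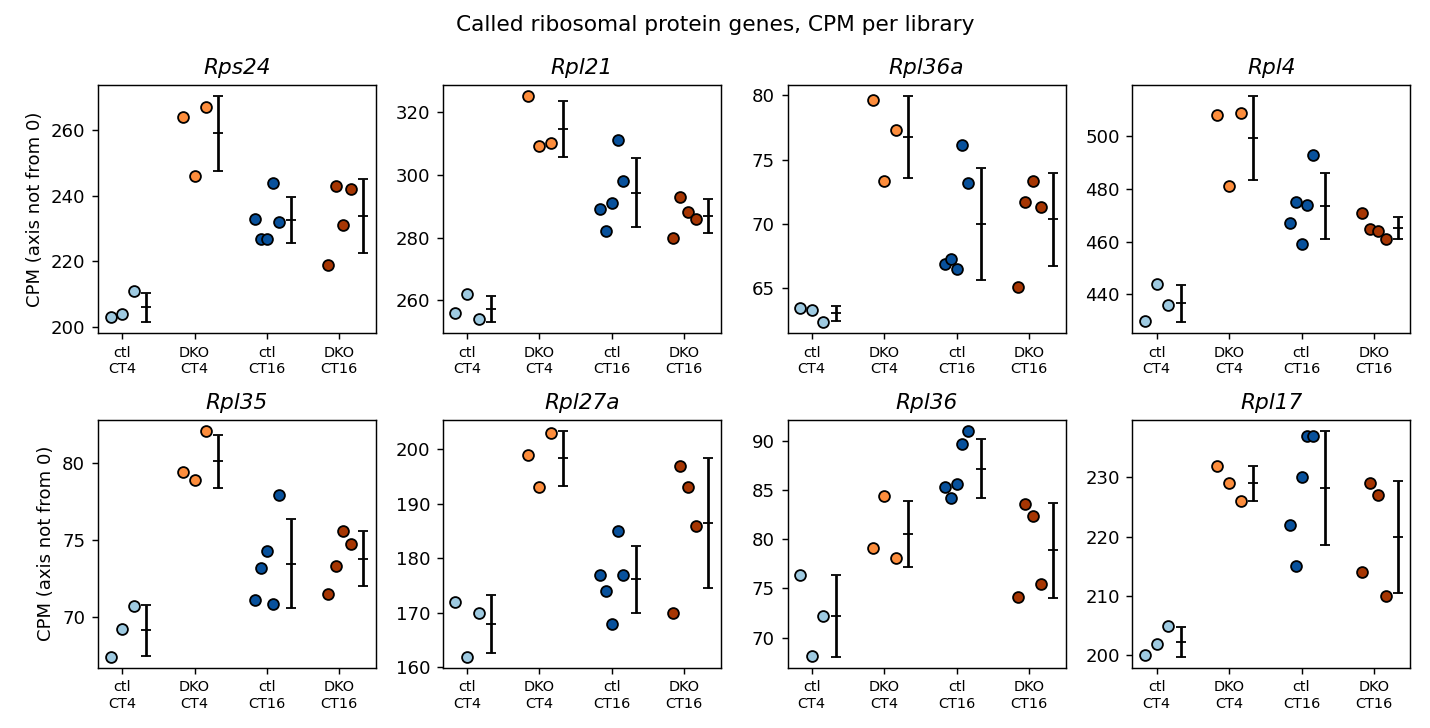
CPM per library in each group for the 6 genes called at CT4 and for Rpl36 and Rpl17, called between times in control, with mean and SD. Vertical axes do not start at 0. In the first 6 panels the control CT4 libraries lie below all DKO CT4 libraries, while the CT16 groups overlap.

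The largest positive value at CT4 belonged to a gene that was not called. Rps4l, a paralog of the 40S protein gene Rps4x, was at 29.5, 26.8 and 29.3 CPM in control and 36.6, 39 and 39.3 CPM in DKO, without overlap, with a log2 fold change of 0.42 ± 0.11 (edgeR adjusted p = 0.0802). Rps4x itself had 0.14 ± 0.06 (edgeR adjusted p = 0.253). The 47 genes of the large subunit had a median of 0.12 with 38 positive, and the 33 of the small subunit 0.07 with 25 positive. The difference between the subunits was not tested.

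Among the stalk genes, Rplp1 and Rplp2 each had a log2 fold change of 0.19 (± 0.08 and ± 0.06, edgeR adjusted p = 0.24 and 0.131) and Rplp0, which anchors them, 0.12 ± 0.08 (edgeR adjusted p = 0.504). For these 3 genes every DKO library was above every control library, although none was called. The fusion genes gave smaller values: Rps27a, which encodes ubiquitin joined to a 40S protein, had 0.07 ± 0.06 and Fau, a ubiquitin-like protein joined to a 40S protein, -0.01 ± 0.07. Of the other paralogs, Rpl36al had 0.14 ± 0.09, Rpl22 0.10 ± 0.08, Rpl7 0.12 ± 0.06 and Rpl7l1 0.08 ± 0.07, and Rpl34 had -0.03 ± 0.41.

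A few genes lay on the other side at CT4. Rpl22l1 had the lowest value, -0.25 ± 0.14 (edgeR adjusted p = 0.438), with 55.6, 61.3 and 57 CPM in control and 50.3, 40.5 and 56.1 CPM in DKO, so the groups overlapped. Rps19, a 40S maturation protein also mutated in Diamond-Blackfan anaemia, was at 123, 121 and 123 CPM in control and 100, 111 and 112 CPM in DKO, a log2 fold change of -0.19 ± 0.08 (edgeR adjusted p = 0.271). Rps21, another 40S protein, had -0.16 ± 0.06 (edgeR adjusted p = 0.212). Rps19 and Rps21 were the 2 genes whose DKO libraries all lay below the control libraries, and neither was called.

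**Figure D5:**
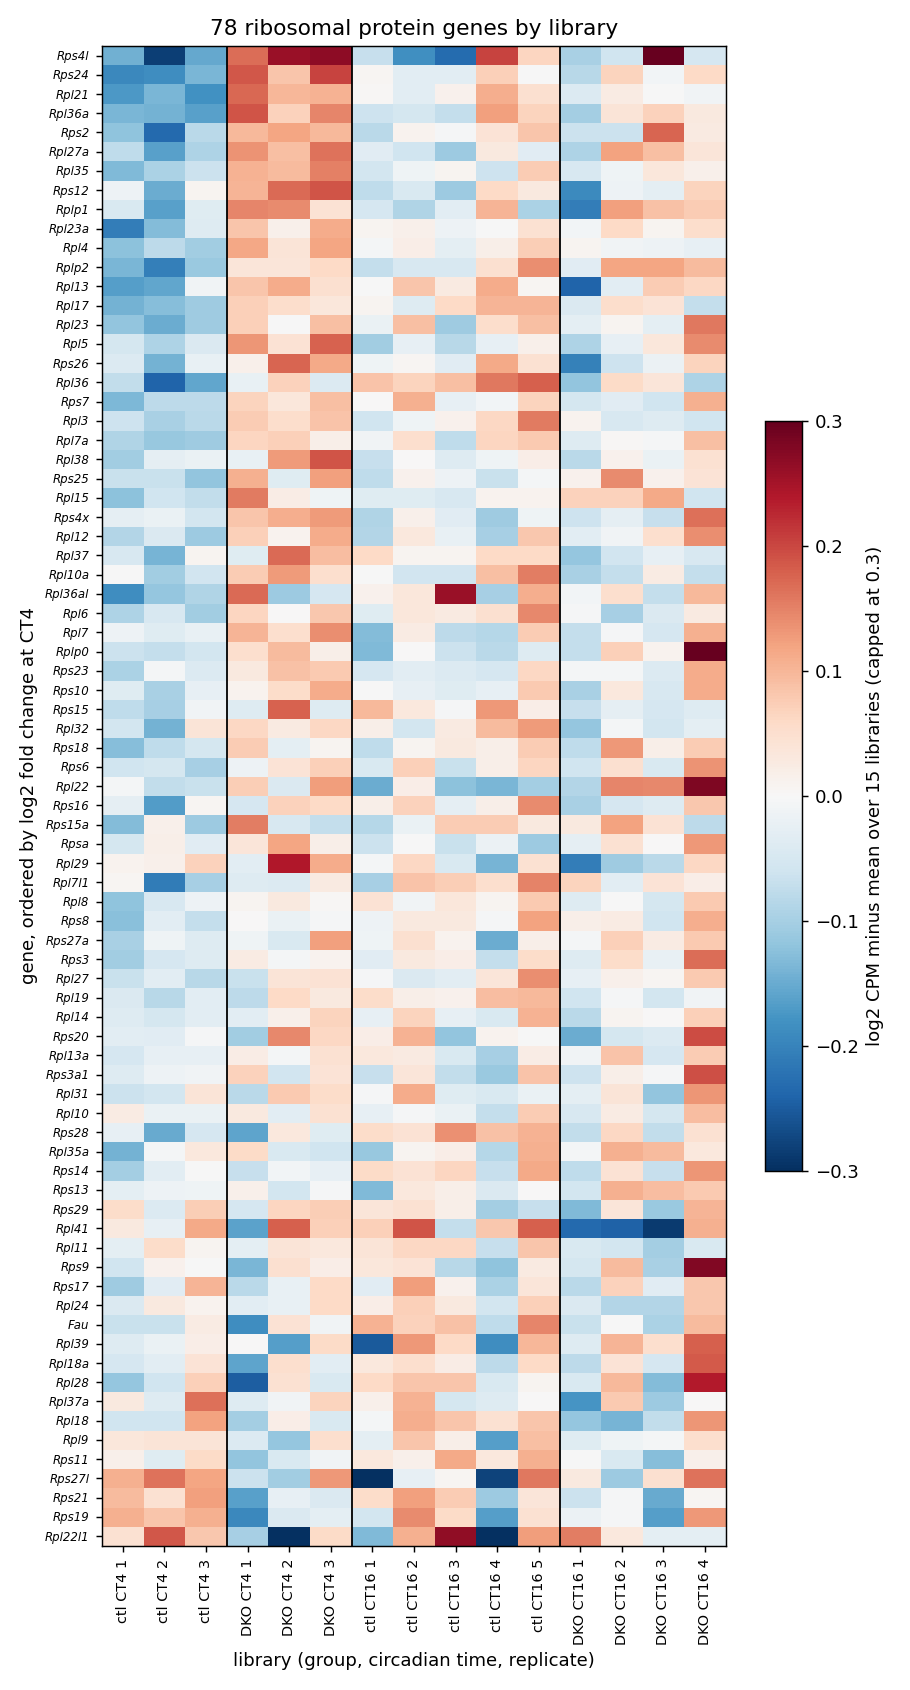
Log2 CPM of 78 ribosomal protein genes in each library, as the difference from the gene's mean over 15 libraries (colour, limited to 0.3 either way), ordered from the largest to the smallest log2 fold change at CT4. Rpl34 is left out because of its low counts, and 1 gene is not shown. This ordering itself places rows with blue control CT4 columns and red DKO CT4 columns at the top and the reverse at the bottom.

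Tissue marker levels differed along with the CT4 comparison. Of 16 markers of neighbouring hypothalamic nuclei, 15 had positive values (median log2 fold change 0.90), with a summed level of 510 to 918 CPM in control and 980 to 1060 CPM in DKO, and of 14 markers of SCN neurons 13 had negative values (median -0.88, 1300 to 1400 CPM against 1030 to 1080 CPM). None of these 30 markers was called. None of them was at 0 throughout a group, though Kiss1 was at 0 CPM in control CT4 replicate 2. Ependymal markers had positive values in 7 of 8 (median 0.36, 103 to 130 CPM against 136 to 173 CPM), and of 8 nuclear RNAs 7 had negative values (median -0.21, 14600 to 17700 CPM against 13800 to 15200 CPM). Control CT4 replicate 1 had a mean log2 deviation of 0.65 over the neighbouring nuclei markers, against 0.671 to 1.16 in the DKO CT4 libraries and at most -0.485 in the other control CT4 libraries. Its share of ribosomal protein counts was 1.31%, within the range of those other control libraries. Control CT16 replicate 5 had the highest deviation of its group (0.79) and the highest share (1.415%). DKO CT16 replicate 3 had the highest deviation of its group (1.004) and a share of 1.348%, inside its group's range. DKO CT16 replicate 4, highest in myelin (1.608), had its group's highest share (1.42%). How tissue content bears on these shares was not tested. At CT4, the median with neighbouring nuclei and myelin scores as covariates was 0.08 and 3 genes were called (1.01% of all genes in either direction). Without the 3 libraries that stood apart, the CT4 median was 0.08 and 6 genes were called (3.57% of all genes), 4 of them among the 6 above.

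Gene length also moved with this comparison: the all-gene median log2 fold change was 0.04 in the shortest of 4 equal bins of exonic length, which holds 72 of the 80 genes, and -0.04 in the longest. With offsets that remove this trend in each library, the median of the ribosomal protein genes was 0.05 with 55 of 80 positive, and 2 were called (0.775% of all genes), Rps24 at 0.28 and Rpl21 at 0.27 (edgeR adjusted p = 0.0132 and 0.0127). Leaving out any 1 of the 6 CT4 libraries left 1 or 2 called genes (0.0936% to 1.12% of all genes), and it was 1 without control CT4 replicate 2 or replicate 3: without replicate 2 Rps24 had an adjusted p of 0.0512, and without replicate 3 Rpl21 had one of 0.0627 in edgeR.

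The same genotype comparison in the subjective night gave no such upward shift. At CT16, 39 of the 80 genes had a positive log2 fold change, with a median of 0.00, the same as over all genes, and 0 were called by edgeR (4.66% of all genes were called in either direction), where DESeq2 and limma voom called 1 each (7.49% and 6.81% of all genes). Without the 3 libraries that stood apart, 23 of the 80 had a positive value, with a median of -0.03 against 0.00 over all genes, and 0 were called (2.47% of all genes). At an unadjusted p under 0.05, 3 were higher (10.4% of all genes) and 9 lower (9.62% of all genes). The groups did not overlap for 4 genes, all lower in DKO (2.94% of all genes), and 0 were higher (4.03% of all genes). The 4 were Rps15, Rpl19, Rpl37 and Rpl36, of which the first 3 are named after their values were seen.

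Rpl22 had the highest value at CT16, with 58.6 to 65.8 CPM (median 59.6 CPM, n = 5) in control. In DKO it was at 61.1, 71.9, 71.7 and 78.9 CPM. The lowest DKO library lay within the control range, and the log2 fold change was 0.22 ± 0.06 (edgeR adjusted p = 0.0517, and 0.00432 without DKO CT16 replicate 1). Its paralog Rpl22l1 had 0.01 ± 0.11. Rplp0 was next at 0.16 ± 0.06 (edgeR adjusted p = 0.165), and the other stalk genes Rplp1 and Rplp2 had 0.06 ± 0.06 and 0.07 ± 0.05.

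The lowest value at CT16 was that of Rpl41, the smallest ribosomal protein, with 136, 135, 131 and 172 CPM in DKO. Control was at 152 to 182 CPM, so 3 of the 4 DKO libraries lay below all control libraries and replicate 4 within them. The log2 fold change was -0.25 ± 0.08 (edgeR adjusted p = 0.114), and without DKO CT16 replicate 4 it was -0.34 (edgeR adjusted p = 0.0105). Rpl36 had -0.14 ± 0.05 (edgeR adjusted p = 0.113). Of the genes called at CT4, Rps24 had 0.01 ± 0.04 and Rpl21 -0.04 ± 0.04 at CT16. Myelin markers were positive in 10 of 10 at CT16 (median 0.72, 2930 to 9660 CPM in control and 3880 to 19900 CPM in DKO), and microglial markers in 10 of 10 (median 0.19). Those of neighbouring nuclei were positive in 4 of 16 (median -0.65) and those of neurons in 1 of 10 (median -0.14). SCN neuron markers were positive in 8 of 14 (median 0.20), with Rgs16 and Rasl11b called higher. Astrocyte markers were positive in 5 of 8 (median 0.28), with Gja1 and Agt called higher and Aldh1l1 lower. The part of these cell types in the ribosomal protein values was not tested beyond the covariates given for the processing.

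The comparison of times in control mice asked how the genes differ between subjective night and day with the receptors present. At CT16, 64 of the 80 genes had a positive log2 fold change against CT4, with a median of 0.07 against -0.01 over all genes. By edgeR, 4 were called higher (2.13% of all genes) and 0 lower (2.08% of all genes), where an unadjusted p under 0.05 was found for 22 higher (9.99% of all genes) and 0 lower (9.95% of all genes). Without overlap between times, 21 were higher (7.99% of all genes) and 0 lower (7.8% of all genes). This comparison shares its 3 control CT4 libraries with the genotype comparison at CT4, so the results of each are given side by side and not as support for the other.

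Rpl36, a 60S protein, was at 76.4, 68.1 and 72.2 CPM at CT4 and 84.2 to 91 CPM (median 85.6 CPM, n = 5) at CT16, a log2 fold change of 0.27 ± 0.05 (edgeR adjusted p = 0.00989). Rpl21 was at 254 to 262 CPM at CT4 and 282 to 311 CPM at CT16, a log2 fold change of 0.19 ± 0.04 (edgeR adjusted p = 0.0151). Every CT16 library was above every CT4 library for both. Rpl17, a 60S protein at the peptide tunnel, was at 200, 202 and 205 CPM at CT4 and 215 to 237 CPM at CT16, a log2 fold change of 0.17 ± 0.04 (edgeR adjusted p = 0.0409). Rps24 rose from 203 to 211 CPM at CT4 to between 227 and 244 CPM at CT16, a log2 fold change of 0.18 ± 0.05 (edgeR adjusted p = 0.0418). These groups were separate too, and the CT16 control levels of Rps24 and Rpl21 lay between the control and DKO levels at CT4, apart from Rpl21 in 1 library that reached the DKO range.

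Rpl34 had the largest value between times in control, 0.67 ± 0.36 (edgeR adjusted p = 0.313), at 1 CPM, and Rps27l, a paralog of Rps27 induced by p53, the lowest, -0.21 ± 0.11 (edgeR adjusted p = 0.307). Rpl36al had 0.20 ± 0.08 (edgeR adjusted p = 0.168), and Rpl22l1 had -0.09 ± 0.12. Rplp2 had 0.15 ± 0.05 (edgeR adjusted p = 0.115), while Rplp0 and Rplp1 had 0.00 ± 0.07 and 0.05 ± 0.07. Leaving out any 1 of the 3 control CT4 libraries left 1 called gene of the 80, where 1.38% to 1.94% of all genes were called in either direction. Without the 3 libraries that stood apart 2 were called (3.59% of all genes). With length offsets the median was 0.04 with 2 called (4.03% of all genes).

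Markers of several cell types also differed between times in control. Those of SCN neurons had negative values in 13 of 14 (median -0.48, 1300 to 1400 CPM at CT4 against 695 to 1360 CPM at CT16), and Rgs16, Rasl11b and Six6 were called lower at CT16. Microglial markers had positive values in 0 of 10 (median -0.32, 348 to 415 CPM against 291 to 333 CPM), so their summed levels did not overlap, and Cx3cr1 and P2ry12 were called lower (-0.68 ± 0.13 and -0.57 ± 0.13, edgeR adjusted p = 0.00995 and 0.025). Markers of endothelium and mural cells were positive in 1 of 8 (median -0.24, 232 to 256 CPM against 181 to 221 CPM), with Cldn5 and Pdgfrb called lower and Ly6c1 called higher (-1.04 ± 0.12, -0.53 ± 0.10 and 0.43 ± 0.10, edgeR adjusted p = 0.000175, 0.00727 and 0.0216). Astrocyte markers were positive in 1 of 8 (median -0.21, 3620 to 3800 CPM against 3000 to 3930 CPM), and myelin markers in 2 of 10 (median -0.29). Other lists lay on the positive side. Markers of neighbouring nuclei were positive in 11 of 16 (median 0.26, 510 to 918 CPM against 821 to 1170 CPM). Among them Crh was called higher (4.31 ± 1.11, edgeR adjusted p = 0.0491), from 0.164 to 0.232 CPM at CT4. Neuronal markers were positive in 9 of 10 (median 0.14) and ependymal markers in 7 of 8 (median 0.11). None of these markers was at 0 throughout a group, and their part in the ribosomal protein values was not tested.

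In DKO mice the corresponding comparison of times gave 30 positive values of 80, with a median of -0.03 against 0.01 over all genes. edgeR called 0 in either direction (1.8% of all genes were called), where DESeq2 called 2 and limma voom 1 (5.17% and 7.75% of all genes). At an unadjusted p under 0.05, 0 were higher (10.7% of all genes) and 12 lower (7.97% of all genes), and 9 lay lower (6.38% of all genes) and 0 higher (8.32% of all genes) at CT16 without overlap. Rpl21 had the smallest p: it was at 325, 309 and 310 CPM at CT4 and 280, 293, 288 and 286 CPM at CT16, without overlap, with a log2 fold change of -0.13 ± 0.04 (edgeR adjusted p = 0.115). Rps24 was at 264, 246 and 267 CPM at CT4 and 219, 243, 231 and 242 CPM at CT16, a log2 fold change of -0.15 ± 0.05 (edgeR adjusted p = 0.123). The extremes were Rpl34 at 0.64 ± 0.37 and Rpl22l1 at 0.17 ± 0.13 on the positive side and Rps4l, Rpl41, Rpl29 and Rps12 at -0.19 on the negative side. Without the 3 libraries that stood apart, 2 of which are DKO CT16 libraries, 2 genes were called lower (6.98% of all genes were called in either direction). Markers of SCN neurons had positive values in 13 of 14 in this comparison (median 0.89, 1030 to 1080 CPM at CT4 against 962 to 1560 CPM at CT16), and those of neighbouring nuclei in 3 of 16 (median -0.86, 980 to 1060 CPM against 490 to 925 CPM). Myelin markers were positive in 9 of 10 (median 0.42, 6190 to 6960 CPM against 3880 to 19900 CPM) and microglial markers in 1 of 10 (median -0.17, 381 to 424 CPM against 276 to 483 CPM), with Cx3cr1 and P2ry12 called lower. The part of these cell types in the ribosomal protein values was not tested.

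Whether the genotype difference itself changed with time was tested as an interaction, the log2 fold change of DKO against control at CT16 minus that at CT4. It was negative for 64 of the 80 genes, with a median of -0.09 against 0.02 over all genes, and edgeR called 0 (0.0118% of all genes were called). At an unadjusted p under 0.05, 0 were positive (8.34% of all genes) and 25 negative (6.78% of all genes), and DESeq2 called 7 and limma voom 4, all negative (2.13% and 2.48% of all genes in either direction). The smallest p-values belonged to Rpl21 with -0.33 ± 0.06 (edgeR adjusted p = 0.0517), Rps24 with -0.32 ± 0.07 (edgeR adjusted p = 0.079) and Rpl36 with -0.30 ± 0.08 (edgeR adjusted p = 0.131). Rps4l had the lowest value at -0.35 ± 0.15 (edgeR adjusted p = 0.274), and Rpl22l1 and Rps27l had the highest, 0.26 ± 0.18 and 0.26 ± 0.16. Without DKO CT16 replicate 3, 3 genes were called (1.77% of all genes), among them Rpl21 (edgeR adjusted p = 0.0262) and Rps24 (edgeR adjusted p = 0.0386), and 3 were called without the 3 libraries that stood apart (2.49% of all genes). With length offsets the median was -0.05, 25 of the 80 were positive and 0 were called (0.0177% of all genes). Marker lists moved here too: SCN neuron markers were positive in 13 of 14 (median 1.41), those of neighbouring nuclei in 2 of 16 (median -1.62), myelin markers in 10 of 10 (median 0.72) and nuclear RNAs in 8 of 8 (median 0.27), with 0 called in each. Their part in the interaction was not tested.

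The share of windows that occur in other genes was set beside these values. At CT4 the 40 genes at or below the median share of 35.8% had a median log2 fold change of 0.06 with 26 positive and 3 called, and the 39 above it 0.13 with 34 positive and 3 called. The rank correlation across the 79 genes between share and this log2 fold change was 0.31, a description over genes counted in the same libraries. Between times in control the medians were 0.06 and 0.07, and for the interaction -0.07 with 13 positive and -0.10 with 2 positive. The sets thus lay on the same side of 0 in these comparisons. They lay on opposite sides between times in DKO, at 0.02 with 22 positive and -0.05 with 8 positive, and at CT16, at -0.01 and 0.01. The difference between the sets was not tested.

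Other genes of the translation machinery were read from lists, to be set against the 0.574% of all genes called higher at CT4. At that time, 9 of 11 elongation factor genes had positive values (median 0.07) and 1 was called, Eef1b2, a nucleotide exchange factor for the elongation factor that delivers tRNA (0.21 ± 0.05, edgeR adjusted p = 0.0487). Of 36 genes of ribosome biogenesis and the nucleolus, 30 had positive values (median 0.07) and 3 were called, Npm1 and Ncl, which encode the abundant nucleolar proteins nucleophosmin and nucleolin, and the helicase Ddx21 (0.28 ± 0.06, 0.25 ± 0.06 and 0.25 ± 0.06, edgeR adjusted p = 0.0388, 0.0484 and 0.0484). Of 30 initiation and poly(A) binding genes, 25 were positive (median 0.07), and of 12 noncoding hosts of small nucleolar RNAs with a TOP start 8 (median 0.09), with 0 called in each. Genes that control ribosomal protein synthesis and TOP messages had 11 of 25 positive (median -0.04, 0 called). Mitochondrial ribosomal protein genes, which serve another ribosome, had 59 of 77 positive (median 0.06, 0 called), and nuclear genes of oxidative phosphorylation 71 of 88 (median 0.07, 0 called). Shares of positive values above that of all genes (49.5%) at CT4 thus occurred in several lists, not in the cytosolic ribosomal proteins alone.

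In the other comparisons the calls in these lists fell on other genes. At CT16, where 4.66% of all genes were called, DKO libraries had higher Eef2k, the kinase that inhibits elongation factor 2 (0.42 ± 0.06, edgeR adjusted p = 0.000381), Rps6ka2, a kinase of the RSK family outside the ribosome (0.27 ± 0.04, edgeR adjusted p = 0.000517), Pno1, a 40S assembly factor (0.49 ± 0.11, edgeR adjusted p = 0.0194), Pabpc4, a poly(A) binding protein (0.17 ± 0.04, edgeR adjusted p = 0.0291), and Nap1l1, a histone chaperone (0.23 ± 0.05, edgeR adjusted p = 0.00813), and lower Eif5a2 (-0.27 ± 0.08, edgeR adjusted p = 0.0477). Between times in control, where 2.13% of all genes were called higher, the nucleolar genes Rrp1 and Nolc1 were higher at CT16 (0.23 ± 0.05 and 0.20 ± 0.05, edgeR adjusted p = 0.0246 and 0.0253), as were Zfp622, a 60S assembly factor (0.28 ± 0.07, edgeR adjusted p = 0.0344), and the ubiquitin gene Ubb (0.24 ± 0.06, edgeR adjusted p = 0.0449). Nuclear genes of oxidative phosphorylation had 78 of 88 positive there (median 0.10). Of these, Ndufa12, Uqcrq and Cox8a were called higher (0.24 ± 0.05, 0.29 ± 0.08 and 0.26 ± 0.07, edgeR adjusted p = 0.0169, 0.045 and 0.0469). Mitochondrial ribosomal protein genes had 63 of 77 positive (median 0.06, 0 called). In DKO mice between times and for the interaction, 0 genes of the translation lists were called. For the interaction, elongation factors had 1 of 11 positive (median -0.14) and mitochondrial ribosomal protein genes 21 of 77 (median -0.10). Nuclear genes of oxidative phosphorylation had 20 of 88 positive (median -0.09, 0 called). Genes that control ribosomal protein synthesis and TOP messages lay on the other side, with 19 of 25 positive (median 0.05). Negative interaction values were thus not seen in the cytosolic ribosomal proteins alone.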

How the data were processed

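Per the labels, total RNA of pooled SCN punches was made into Illumina libraries. STAR, featureCounts, DESeq2 and the build mm10 appear in the submitters' processing notes, and their versions, the annotation and the strand setting are not stated. The authors deposited raw read counts per gene and library beside each gene's exonic length, per the file headers. Which animals were pooled is not stated, so that p-values describe variation among pools. Library pairs within groups differed by more than sampling noise, and each counted as 1 replicate.

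With edgeR 4.0.16 in R 4.3.3, filterByExpr kept 16910 genes, TMM factors were computed, and 1 robust quasi-likelihood model with 4 group means (11 residual degrees of freedom) gave every comparison. A called gene has a Benjamini-Hochberg adjusted p under 0.05 over all genes. SE is the size of the log2 fold change over the root of F. CPM used TMM-scaled totals, except for the mean that chose the genes and the share of counts. The steps were tested on simulated data.

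Ribosomal protein genes named are up to 6 called per direction and comparison, the 2 largest and 2 smallest log2 fold changes, the paralogs, the stalk and fusion genes, those next to the CPM limit, and others said to be named after their values were seen. Rps21, Rps12, Rpl29 and the genes given with overlap or level values were also chosen that way. From the translation and oxidative phosphorylation lists, up to 3 called genes per comparison are named. Of the called cell type markers, only some are named. Values of 1 gene are not reported here singly. The members and lists were chosen with earlier results of these data known. Alternatives were other scaling factors, length offsets, DESeq2 1.42.0, voom of limma 3.58.1, other filters, a fit of 2 groups, a replicate block, marker covariates, a stricter name rule and each library left out. Exclusion of 3 libraries and of members overlapping another gene was added after the data were seen.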

Additional observations from a re-analysis of the deposited data

Results flagged for a closer look

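Values in the CT16 groups, of 5 control and 4 DKO libraries, were checked for a library far from the others. Of 60 sets of values (the named genes and the share of counts in each group), 6 were singled out by Dixon's criterion, which picks about 1 in 20 by chance. In control CT16, Rpl22 was at 65.8 CPM in replicate 2 against 58.6 to 60.5 CPM in the others, and Rps27 at 1.56 CPM in replicate 5 against 0.764 to 0.976 CPM. In DKO CT16, Rps4l was at 40.4 CPM in replicate 3 against 30.5 to 31.5 CPM, and Rpl41 at 172 CPM in replicate 4 against 131 to 136 CPM, both in libraries that also stood apart in tissue markers. In DKO CT16 replicate 1, Rplp1 was at 297 CPM against 361 to 373 CPM, and Rplp2 at 117 CPM against 128 to 130 CPM, so that the acidic stalk pair was low in the same library.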

How the results depend on the processing

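No called ribosomal protein gene changed direction under the alternatives run. The median log2 fold change stayed above 0 at CT4 and between times in control and below 0 for the interaction and between times in DKO, while that at CT16 lay on either side of 0. Its ranges were 0.053 to 0.095, 0.038 to 0.078, -0.127 to -0.047, -0.052 to -0.007 and -0.032 to 0.016, in that order. The counts of called ribosomal protein genes (6 at CT4, 0 at CT16, 4 between times in control, 0 between times in DKO and 0 for the interaction) moved with the setting. Upper quartile factors and total counts only each gave 2 between times in control (4.27% and 4.36% of all genes). Length offsets gave 2 at CT4 (0.775% of all genes), 1 at CT16 (4.78%) and 2 between times in control (4.03%), with an interaction median of -0.047. DESeq2 called 10 at CT4 (3.45% of all genes, against 1.28% in the reported fit), 1 at CT16, 2 between times in DKO and 7 for the interaction, and limma voom 16 (4.86% of all genes), 1, 7 (10.7%) between times in control, 1 and 4. With no filter on low counts, 3 were called at CT4 (0.793% of all genes) and 2 between times in control (3.01%). A fit of only the groups compared called 16 at CT4 (5.12%). The replicate number as a block gave 2 at CT4 (0.615% of all genes) and 0 between times in control (2.24%), and no other count changed. Same-numbered libraries deviated together by correlations of -0.184 to 0.138, so the numbers were not taken to pair libraries. Marker scores as covariates gave 3 at CT4 (1.01% of all genes), 2 at CT16 (5.98%) and 9 between times in control (8.3%). Calls over all genes thus also rose at CT16 and between times in control, from 4.66% and 4.21% in the reported fit. Without the 3 libraries that stood apart, 2 were called between times in control (3.59%), 2 in DKO (6.98%) and 3 for the interaction (2.49%). The cause of these moves was not tested. Leaving out each library gave 1 to 8 at CT4, 0 to 2 at CT16, 1 to 4 between times in control, 0 each time in DKO and 0 to 3 for the interaction. The share of all genes was 0.0936% and 0.112% where 1 was called at CT4, and 7.83% where 2 were called at CT16. It was 1.38% to 1.94% where 1 was called between times in control, and 1.77% where 3 were called for the interaction. The stricter name rule lowered the mean share of counts at CT4 to 1.285% in control and 1.378% in DKO by holding 78 genes. Rps24 and Rpl21 each lost their CT4 call in 1 of 28 alternatives, Rpl36a in 11, Rpl4 in 15, Rpl35 in 16 and Rpl27a in 18. The call between times in control was lost in 2 of 28 for Rpl36, 3 for Rpl21, 15 for Rps24 and 16 for Rpl17. The smallest log2 fold change called among these genes was 0.17 (Rpl17 between times in control), and an uncalled gene is not shown to be unchanged.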
